A study of Mus musculus with 16 samples.

Results

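The Hox genes of the 4 mouse clusters were followed across RNA-seq libraries of the seminal vesicle (SV), the paired male accessory gland that secretes much of the seminal plasma. Members were chosen by symbol, as the letters Hox, a cluster letter from a to d and a paralogue number, with 1 gene of the Hoxb cluster left out. They were 38 of the 31274 genes in the table, 11 in Hoxa and 9 in each of Hoxb, Hoxc and Hoxd. On the GRCm38 assembly, with coordinates from GENCODE M21, Hoxa lay on chromosome 6 (minus strand), Hoxb on chromosome 11 (96271457 to 96368256, plus strand), Hoxc on chromosome 15 (102921103 to 103036852, plus strand) and Hoxd on chromosome 2 (74668310 to 74765142, plus strand). There were 4 groups of 4 libraries, all from C57BL/6 males at week 5. WT-veh and WT-DES were wild type, born to purchased pregnant females, and αERKO-veh and αERKO-DES lacked oestrogen receptor α throughout the body through a disrupted Esr1 gene and came from heterozygous matings. Pups in the DES groups received the synthetic oestrogen diethylstilbestrol (DES) in corn oil under the skin from day 1 to day 5 of life, 2 µg each day for every pup, and vehicle pups received corn oil alone. The anterior prostate was removed from the SV at dissection, but 4 of its markers were abundant, with a sum of 3977 to 5202 FPKM in WT-veh, and lower after DES, at 27.0 to 369.4 in WT. In αERKO the sum was 4208 to 5516 FPKM after vehicle, against 3375 to 4388 after DES. The methods for RNA extraction and qPCR speak of 3 pools of mice for WT-DES and of 4 single mice for the other groups, while those for RNA-seq speak of 4 samples a group, so a WT-DES library may hold more than 1 animal. The number in a group is therefore the number of libraries, and p-values measure the spread between libraries.

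Hox genes encode homeodomain transcription factors. Within a cluster the genes sit in the order of their domains along the head to tail axis, those with low paralogue numbers acting towards the head and those with high numbers, the AbdB type, acting in the trunk end, limb ends and urogenital tract, and adult tissues keep much of the code that they were given in the embryo. In the male tract, Hoxa10 and Hoxa11 set the character of the vas deferens, and Hoxa13 and Hoxd13 are needed for the normal shape of the SV and other accessory glands. HOX proteins bind DNA together with PBX and MEIS proteins of the TALE homeodomain class.

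Expression was measured in FPKM, the number of fragments of a gene scaled for its exon length and for the size of the library. Depth could not be read from these values. The Esr1 level fitted the genotype labels, at 2.81 to 4.55 FPKM in WT-veh and 8.74 to 19.6 in WT-DES against 1.30 to 1.75 with vehicle and 0.91 to 1.64 with DES in αERKO. The markers of SV secretion were abundant in WT-veh, at a summed 45790 to 53332 FPKM over 7 genes, and lower in WT-DES, at 2356 to 7678. In WT-DES against WT-veh all 6 fibroblast, all 10 leukocyte, all 4 endothelial and all 4 adipose markers were higher, while 4 of 6 epithelial, 5 of 6 smooth muscle and all 4 anterior prostate markers were lower. Of the urothelial markers 1 of 3 was higher, of the skeletal muscle markers 2 of 7 were lower, and of the 6 epididymal markers 1 could be tested and was not called. Their part in the Hox values was not tested, and in bulk tissue fewer cells of a type and less RNA per cell cannot be told apart. WT-DES replicate 1 stood apart from the other WT-DES libraries. Its 3 urothelial markers summed to 1256 FPKM against 68.5 to 196.6 in replicates 2 to 4, and its 6 smooth muscle markers to 3580 FPKM against 791.1 to 1256. Results are therefore also given without it.

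The RefSeq promoter windows of GRCm38.p6 run from 250 bases before to 50 bases after a gene's start and were matched for 22 of the 38 members, as 24 windows. They are shown for 4 adjacent Hoxd genes, since Hoxd8 and Hoxd9 fell while Hoxd10 and Hoxd11 rose after DES in WT, and for Hoxb8, which fell, and Hoxa13, which rose, from other clusters. Sequences run 5′ to 3′ on the gene's strand, and capitals mark motif matches. The motifs searched on both strands were the oestrogen response element GGTCANNNTGACC, its half-site GGTCA, which also lies within the full element, the TATA box TATAAA, the CCAAT box CCAAT and the PBX-HOX composite site TGATTGAT.
Hoxd8, chr2:74704365-74704664, plus strand: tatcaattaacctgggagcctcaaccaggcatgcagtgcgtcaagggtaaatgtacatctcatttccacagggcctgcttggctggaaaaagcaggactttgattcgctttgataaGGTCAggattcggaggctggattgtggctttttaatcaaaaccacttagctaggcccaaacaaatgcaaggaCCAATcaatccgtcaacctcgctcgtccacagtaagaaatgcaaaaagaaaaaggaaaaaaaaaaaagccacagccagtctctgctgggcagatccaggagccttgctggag
Hoxd9, chr2:74697513-74697812, plus strand: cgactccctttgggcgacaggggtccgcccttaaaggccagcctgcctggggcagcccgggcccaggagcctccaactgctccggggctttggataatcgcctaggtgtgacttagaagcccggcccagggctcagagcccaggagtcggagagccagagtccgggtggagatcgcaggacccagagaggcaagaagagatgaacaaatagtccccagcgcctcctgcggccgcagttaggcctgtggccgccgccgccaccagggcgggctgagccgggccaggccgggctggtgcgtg
Hoxd10, chr2:74691641-74691940, plus strand: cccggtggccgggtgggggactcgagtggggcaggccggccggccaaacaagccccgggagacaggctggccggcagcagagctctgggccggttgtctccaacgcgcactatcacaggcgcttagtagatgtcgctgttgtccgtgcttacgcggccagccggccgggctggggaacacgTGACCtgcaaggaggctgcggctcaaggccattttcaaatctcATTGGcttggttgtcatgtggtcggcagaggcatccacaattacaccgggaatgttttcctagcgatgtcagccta
Hoxd11, chr2:74679308-74679607, plus strand: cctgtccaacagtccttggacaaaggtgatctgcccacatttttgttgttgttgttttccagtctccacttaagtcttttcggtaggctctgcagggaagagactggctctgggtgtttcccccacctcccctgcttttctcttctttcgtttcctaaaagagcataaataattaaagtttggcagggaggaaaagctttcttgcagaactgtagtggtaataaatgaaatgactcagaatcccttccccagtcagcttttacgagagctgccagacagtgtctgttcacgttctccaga
Hoxb8, chr11:96281655-96281954, plus strand: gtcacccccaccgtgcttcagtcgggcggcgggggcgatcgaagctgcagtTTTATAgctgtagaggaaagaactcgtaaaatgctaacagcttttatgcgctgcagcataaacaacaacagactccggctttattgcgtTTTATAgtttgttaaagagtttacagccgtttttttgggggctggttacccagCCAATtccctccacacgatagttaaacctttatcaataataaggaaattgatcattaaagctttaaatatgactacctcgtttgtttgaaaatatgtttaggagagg
Hoxa13, chr6:52260831-52261130, minus strand: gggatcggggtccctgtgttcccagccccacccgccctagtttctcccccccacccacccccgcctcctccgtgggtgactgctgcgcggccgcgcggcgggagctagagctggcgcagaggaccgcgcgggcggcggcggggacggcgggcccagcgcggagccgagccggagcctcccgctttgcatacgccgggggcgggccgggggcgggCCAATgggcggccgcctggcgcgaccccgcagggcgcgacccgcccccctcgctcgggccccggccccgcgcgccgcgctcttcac

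The Hoxd8 window held a half-site 134 bases before the start and a CCAAT box 62 bases before it. The Hoxd10 window held a half-site 69 bases and a CCAAT box 26 bases before the start, both read from the opposite strand. No motif was matched in the windows of Hoxd9 and Hoxd11, and of the 2 windows of the latter gene the one nearest its annotated 5′ end is shown. The Hoxb8 window held TATA boxes on the opposite strand 199 and 110 bases and a CCAAT box 57 bases before the start, and the Hoxa13 window a CCAAT box 36 bases before it. Over the 24 Hox windows the full oestrogen response element was matched in 0 (0.07% of all 32851 windows held it), the half-site in 12 (40.5% of all windows), the TATA box in 4 (13.6%), the CCAAT box in 15 (37.4%) and the PBX-HOX site in 2 (0.746%), the Hoxa2 window and the Hoxd11 window that is not shown. The GC content was 81% in the Hoxa13 window, 68.3% for Hoxd9, 62.7% for Hoxd10, 46.7% for Hoxd8, 45.7% for Hoxd11 and 42.3% for Hoxb8, against a median of 57.7% over the Hox windows and 52.7% over all windows. A match is a string of letters and does not show binding.

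In WT-veh SV the Hoxb and Hoxd clusters supplied most Hox RNA. Hoxb6 was first at 83.7 ± 5.26 FPKM (mean ± SD, n = 4), followed by Hoxb9 at 77.7 ± 3.41, and the 4 libraries of these neighbours in the order overlapped. Next came Hoxb8, Hoxb7, Hoxd9 and Hoxd8 at 49.5, 48.1, 45.4 and 42.1 FPKM, where each overlapped the next, while Hoxb9 and Hoxb8 did not overlap. Hoxb2 at 34.3, Hoxa10 at 25.9 and Hoxd13 at 22.1 FPKM stood apart from each other. The Hoxc members were the lowest cluster, from Hoxc10 at 0.84 ± 0.63 FPKM down to Hoxc12, which was listed at 0 in all 16 libraries. Hoxa10 was the highest Hoxa gene and took the 8th place among the 38.

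A gene was tested when its mean was above 1 FPKM in at least 1 group. This left 29 of the 38 members, 9 in Hoxa, 8 in Hoxb, 4 in Hoxc and 8 in Hoxd, among 15988 genes. Among the 9 members below the minimum were Hoxa4 (0 to 0.90 FPKM over the 16 libraries), Hoxb1 (0 to 0.08), Hoxc4 (0.04 to 0.71), Hoxc5 (0.02 to 0.47), Hoxc9 (0.03 to 0.79), Hoxc12, Hoxc13 (0 to 0.05, with 13 libraries at 0) and Hoxd1 (0.03 to 0.13). Hoxa2, Hoxc6, Hoxc8 and Hoxc11 passed only through WT-DES, so a higher value in WT-DES was needed for them to be tested at all, and Hoxa3, Hoxa6 and Hoxc10 passed through WT-DES and αERKO-veh. A member was called when limma, fitted on log2(FPKM + 1) over all tested genes, gave a Benjamini-Hochberg adjusted p of at most 0.05 and the group means differed at least 1.5-fold. In a comparison of 2 groups, 1 of the 2 means also had to be above 1 FPKM. Changes below are on that log2 scale, which understates the fold of genes near or below 1 FPKM.

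**Figure D1:**
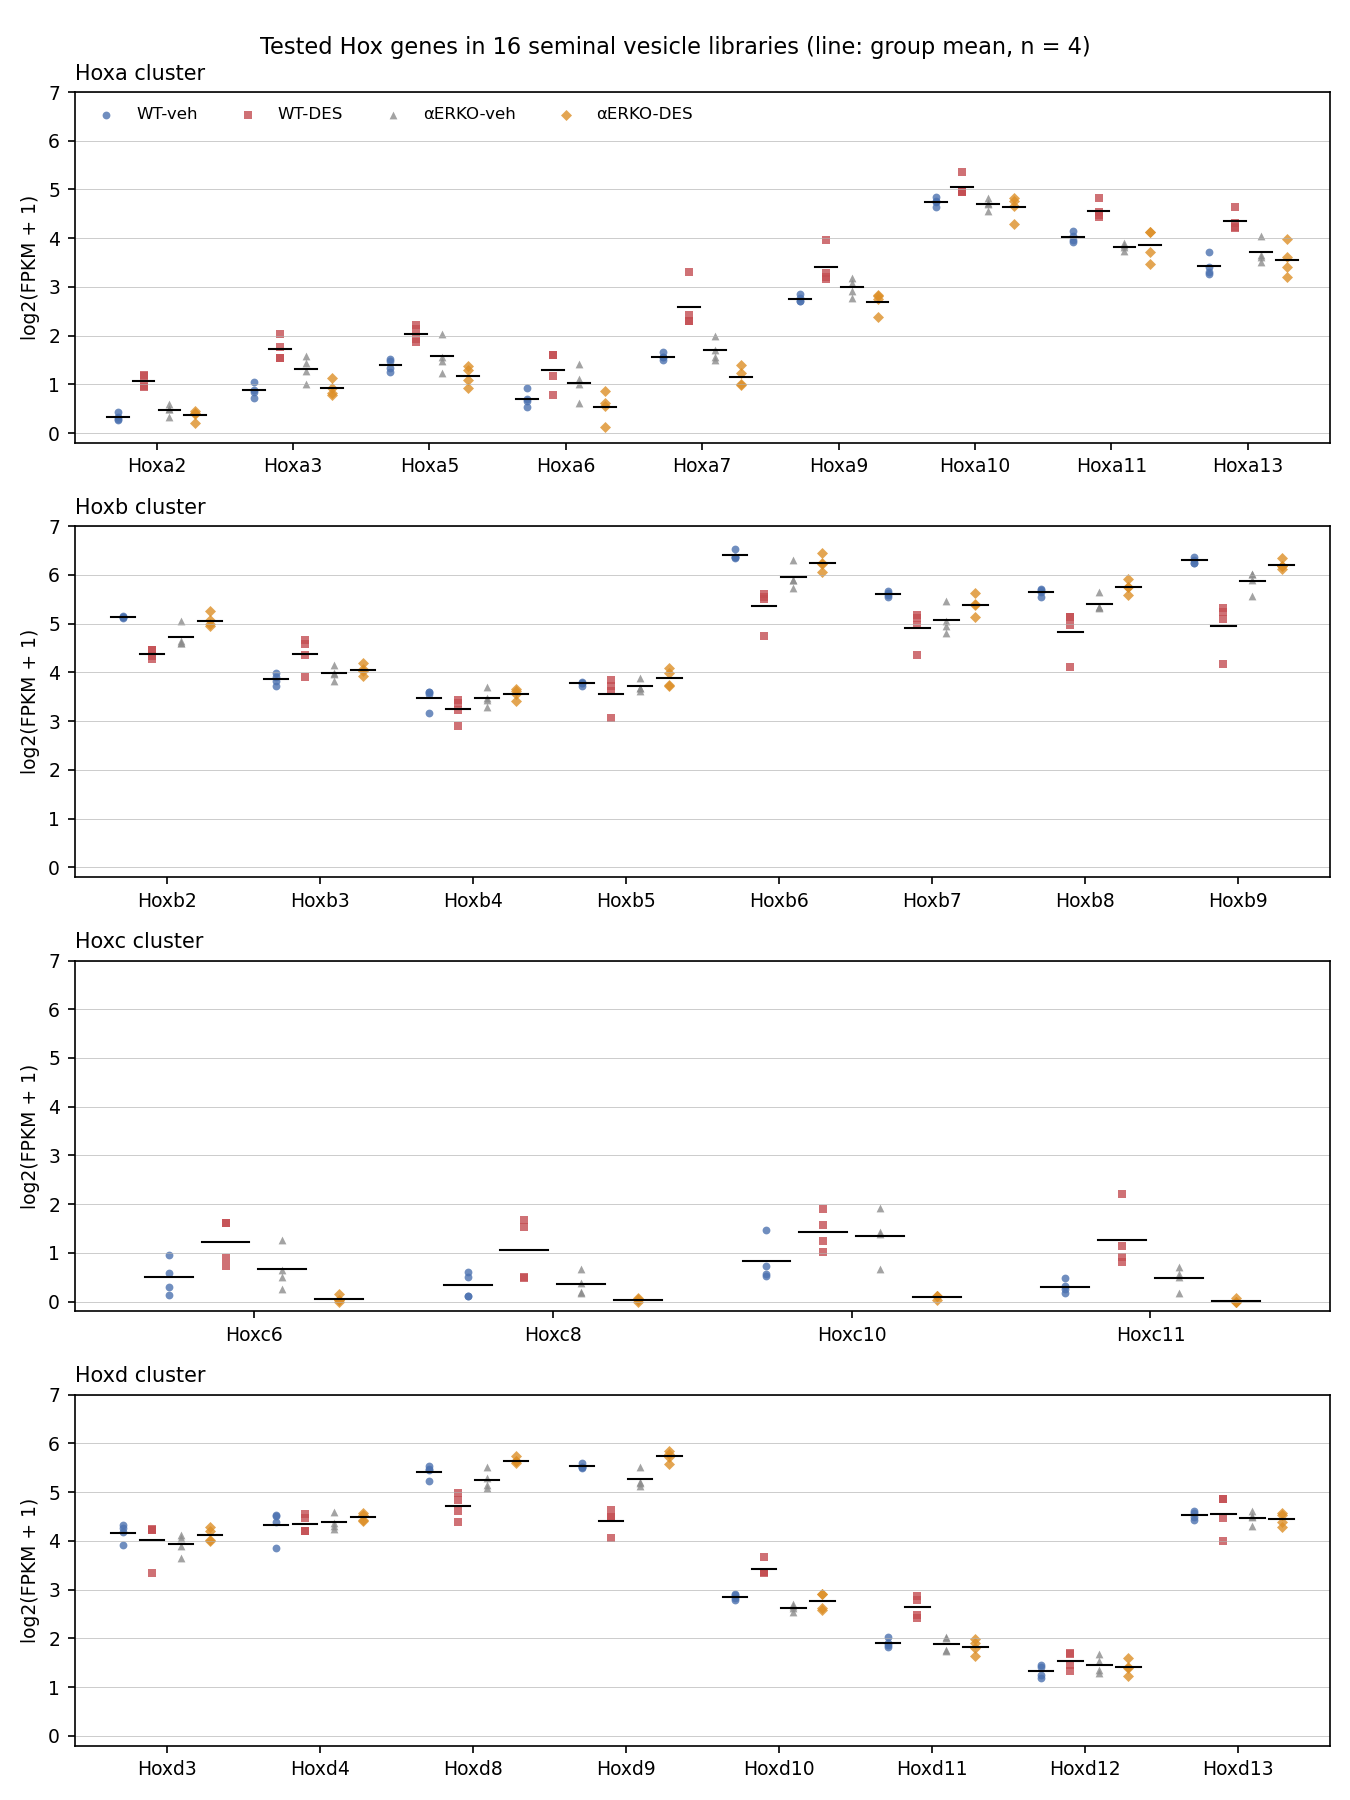
log2(FPKM + 1) of the 29 tested members in each of the 16 libraries, by cluster, with 1 point for each library, coloured by group, and a line at each group mean. The WT-DES mean is the lowest of the 4 for Hoxb6 to Hoxb9, and Hoxc genes are near 0 in αERKO-DES.

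Comparing WT-DES with WT-veh asked how neonatal DES altered the SV. Of the 29 tested members 20 were called (69.0%), 13 higher and 7 lower, where 52.7% of all tested genes were called, 28.9% higher and 23.9% lower. In Hoxa 7 of 9 rose and none fell, in Hoxb 5 of 8 fell and none rose, and in Hoxd the 2 centrally placed genes Hoxd8 and Hoxd9 fell and Hoxd10 and Hoxd11 rose. The 4 tested Hoxc genes were called higher, but Hoxc6, Hoxc8 and Hoxc11, and Hoxa2 in Hoxa, could be tested only because WT-DES was high. The WT-veh means of Hoxa3 (0.845 FPKM), Hoxa6 (0.635) and Hoxc10 (0.84) were below 1, so these could only be called higher too. The direction of all these calls was fixed by the minimum and supports nothing about the clusters. Hoxa2, Hoxa3 and Hoxa6 also enter the Hoxa median. The median log2 change was 0.64 in Hoxa, -0.73 in Hoxb and 0.026 in Hoxd, against -0.0094 over all tested genes. The groups did not overlap in 18 members, 11 above and 7 below, where 66.7% of all tested genes did not overlap, 32.7% above and 34.0% below. The 20 called changes kept their sign when FPKM was rescaled without the 20 most abundant genes, by median-ratio scaling and after a length correction, as did the 17 tested after quantile normalization. The first of these shifted the median of all tested genes by 0.387 and the second by 0.132, and the signs held relative to those medians too. The split moved to 17 higher and 2 lower under the first and 15 and 5 under the second. Among all called genes 79.2% were higher under the first and 63.7% under the second, against 54.7% before. Hoxb2, Hoxb6, Hoxb7, Hoxb8 and Hoxd8 were no longer called under the first, and Hoxa10, Hoxa11, Hoxb3 and Hoxd12 were. After quantile normalization, which left 26 members to test, 9 were called, 6 higher and 3 lower, and 7 of them were among the 20. There 7639 of all 15754 tested genes were called, a larger share than among the members. Of the 20 that could be tested there, all but Hoxa13 had a change of smaller size, down to 0.15 for Hoxa5 against 0.64. Without WT-DES replicate 1, 17 of 28 tested members were called, 11 higher and 6 lower, and 16 of them were among the 20.

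**Figure D2:**
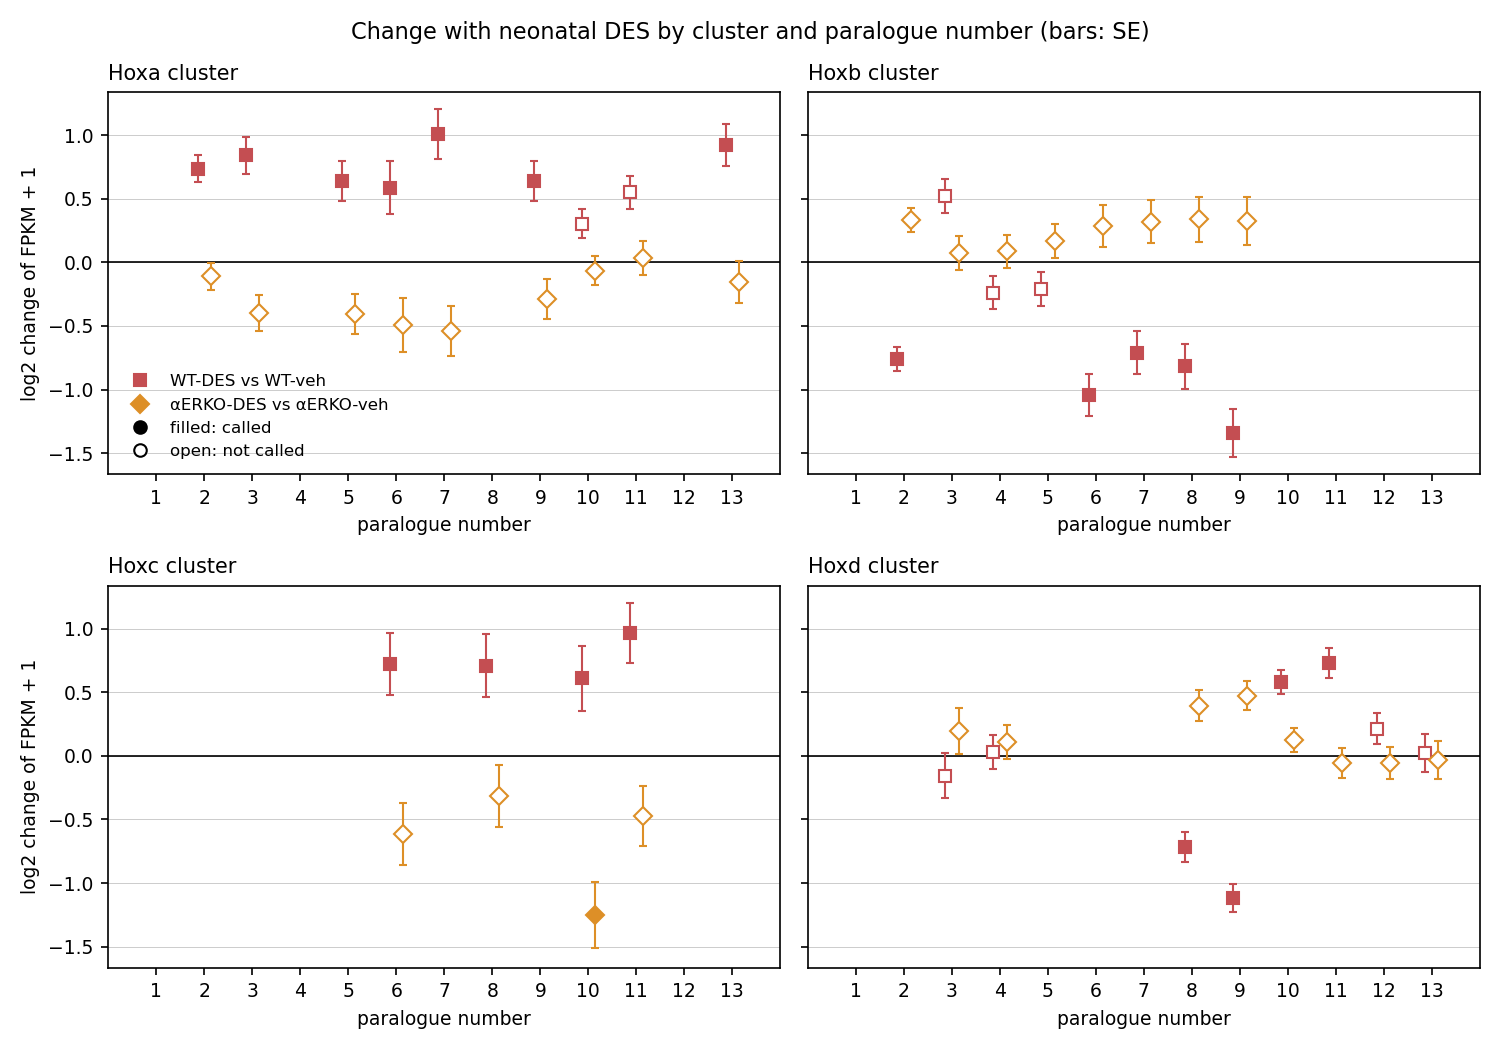
log2 change in FPKM + 1 for the 29 tested members, by paralogue number within each cluster, in WT-DES against WT-veh (squares) and αERKO-DES against αERKO-veh (diamonds), with SE bars and called members filled. In WT the Hoxa and Hoxc points lie above 0, Hoxb6 to Hoxb9 below it and Hoxd changes from below 0 at Hoxd8 and Hoxd9 to above 0 at Hoxd10 and Hoxd11, while in αERKO Hoxc10 is the 1 filled point.

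Among the Hoxa genes with low paralogue numbers, Hoxa2, which specifies the second pharyngeal arch and parts of the hindbrain, read 0.21, 0.26, 0.35 and 0.23 FPKM in WT-veh and 0.92, 1.27, 1.30 and 0.95 in WT-DES. Hoxa2 in αERKO read 0.26, 0.51, 0.41 and 0.42 after vehicle and 0.33, 0.32, 0.16 and 0.38 after DES. Its change in WT was 0.74 ± 0.11 (SE), limma adjusted p = 1.67e-05. WT-DES was the sole group with any Hoxa2 library above 0.51 FPKM, and it did not overlap another. Hoxa3, needed for the thymus and parathyroid, read 0.86, 0.79, 0.66 and 1.07 FPKM in WT-veh and 3.07, 1.91, 1.91 and 2.41 in WT-DES. Hoxa3 in αERKO read 1, 1.99, 1.70 and 1.41 after vehicle and 0.91, 1.20, 0.73 and 0.78 after DES. DES in WT changed it by 0.84 ± 0.14 (SE), limma adjusted p = 9.33e-05. WT-DES did not overlap WT-veh, and αERKO-veh replicate 2 reached the WT-DES range. Hoxa5, which patterns the lung and the neck to thorax skeleton, read 1.54, 1.79, 1.38 and 1.89 FPKM in WT-veh and 3.40, 2.65, 2.84 and 3.69 in WT-DES. Hoxa5 in αERKO read 1.36, 3.12, 1.79 and 1.96 after vehicle and 1.13, 1.45, 0.91 and 1.60 after DES, and its change in WT was 0.64 ± 0.16 (SE), limma adjusted p = 0.00177. Every WT-DES library lay above every WT-veh library, and αERKO-veh replicate 2 lay within the WT-DES range.

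Hoxa6, which acts in the trunk, read 0.57, 0.46, 0.89 and 0.62 FPKM in WT-veh and 2.03, 1.27, 0.72 and 2.03 in WT-DES. Hoxa6 in αERKO read 0.54, 1.66, 1 and 1.15 after vehicle and 0.09, 0.82, 0.48 and 0.53 after DES, and its change in WT was 0.59 ± 0.21 (SE), limma adjusted p = 0.0199. WT-DES replicate 3 lay within the WT-veh range, and the call was lost without WT-DES replicate 1 or 4 or WT-veh replicate 2. Hoxa7, another trunk gene, read 2.16, 1.96, 1.84 and 1.94 FPKM in WT-veh and 8.87, 3.90, 3.92 and 4.39 in WT-DES. Hoxa7 in αERKO read 1.84, 3.01, 1.97 and 2.26 after vehicle and 1.01, 1.64, 0.97 and 1.36 after DES, and its change in WT was 1.01 ± 0.19 (SE), limma adjusted p = 0.000251. All WT-DES libraries lay above all others, replicate 1 far above the rest.

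Of the Hoxa genes of AbdB type, Hoxa9, also a regulator of blood stem cells, read 6.20, 5.58, 5.56 and 5.81 FPKM in WT-veh and 14.6, 8.25, 7.91 and 8.71 in WT-DES. Hoxa9 in αERKO read 5.83, 7.45, 8.12 and 6.57 after vehicle and 6.12, 6.06, 4.23 and 5.76 after DES, with a change in WT of 0.64 ± 0.16 (SE), limma adjusted p = 0.00201. WT-DES did not overlap WT-veh and replicate 1 was the highest. Hoxa9 was no longer called without that library. Hoxa10, the vas deferens and uterus gene, read 24.1, 25.7, 26.1 and 27.6 FPKM in WT-veh and 39.9, 30.4, 29.8 and 29.7 in WT-DES. Hoxa10 in αERKO read 25.1, 22.7, 27.2 and 25.3 after vehicle and 27.4, 26.2, 18.6 and 24.3 after DES, with a log2 difference in WT of 0.31 ± 0.11 (SE), limma adjusted p = 0.0256. The WT-DES libraries lay above all others, but the ratio of means was 1.25 and Hoxa10 was not called. Hoxa11, which acts in the vas deferens, uterus, limb and kidney, read 14.2, 16.8, 14.6 and 15.4 FPKM in WT-veh and 27.2, 21.3, 20.6 and 22.3 in WT-DES. Hoxa11 in αERKO read 13.9, 13.1, 12.3 and 13.6 after vehicle and 16.5, 16.6, 10.1 and 12.2 after DES, with a log2 difference in WT of 0.55 ± 0.13 (SE), limma adjusted p = 0.0015. The WT-DES libraries lay above all others, and the ratio of means stood just under the 1.5 needed for a call, which it passed without any of WT-veh replicates 2 and 4 and WT-DES replicates 2, 3 and 4. Hoxa13, the last gene of the cluster, with roles in the digits and the end of the urogenital tract, read 9.65, 12.2, 8.66 and 8.87 FPKM in WT-veh and 23.9, 17.8, 18.9 and 17.5 in WT-DES. Hoxa13 in αERKO read 10.4, 15.5, 11.6 and 11.3 after vehicle and 8.23, 11.2, 9.67 and 14.8 after DES, and its change in WT was 0.92 ± 0.16 (SE), limma adjusted p = 0.000127. WT-DES lay above every library of the other 3 groups.

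In Hoxb, the gene nearest the head-side end among those tested was Hoxb2, which acts in the hindbrain. It read 34.4, 34.0, 34.4 and 34.5 FPKM in WT-veh and 19.2, 21.1, 21.0 and 18.3 in WT-DES. Hoxb2 in αERKO read 32.4, 23.4, 23.2 and 24.2 after vehicle and 37.1, 30.8, 32.5 and 29.9 after DES, and its change in WT was -0.76 ± 0.096 (SE), limma adjusted p = 4.9e-06. WT-DES lay below every other library. Hoxb3 read 13.9, 14.8, 13.3 and 12.1 FPKM in WT-veh and 14.02, 23.1, 24.4 and 19.4 in WT-DES. Hoxb3 in αERKO read 16.9, 14.8, 13.1 and 14.9 after vehicle and 15.8, 17.4, 14.1 and 15.4 after DES, with a log2 difference in WT of 0.52 ± 0.13 (SE), limma adjusted p = 0.00267. WT-DES replicate 1 lay within the WT-veh range and the other WT-DES libraries above it, and Hoxb3 missed the 1.5-fold limit with a ratio of 1.495. It was called without that library, WT-DES replicate 4 or WT-veh replicate 1 or 2. Of the Hoxb3 exon bases, 52.9% were shared with the opposite-strand gene Hoxb3os, and for Hoxb2 it was 27.3%, so with the strand of the counting not given in the sources used here these genes and their antisense partner cannot be told apart.

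Hoxb4, known for expanding blood stem cells, read 11.2, 11.1, 10.7 and 7.95 FPKM in WT-veh and 6.50, 9.89, 9.39 and 8.41 in WT-DES. Hoxb4 in αERKO read 11.9, 9.79, 10.2 and 8.82 after vehicle and 11.6, 10.8, 11.3 and 9.65 after DES. Its log2 difference in WT was -0.24 ± 0.13 (SE), limma adjusted p = 0.105, and 0.15 with rescaling. The 4 groups overlapped. Hoxb5 read 12.8, 13.0, 12.2 and 12.7 FPKM in WT-veh and 7.41, 13.3, 12.2 and 11.3 in WT-DES. Hoxb5 in αERKO read 13.8, 11.8, 11.3 and 11.8 after vehicle and 15.96, 14.8, 12.3 and 12.3 after DES. Its log2 difference in WT was -0.21 ± 0.14 (SE), limma adjusted p = 0.173, and 0.19 with rescaling. WT-DES replicate 1 was lowest and the groups overlapped.

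Hoxb6 to Hoxb9 were the members with the highest levels in the WT-veh SV and each fell. Hoxb6, a trunk and lateral plate gene, read 91.5, 81.8, 80.1 and 81.5 FPKM in WT-veh and 26.0, 48.2, 45.5 and 44.8 in WT-DES. Hoxb6 in αERKO read 78.3, 52.5, 58.4 and 58.5 after vehicle and 86.5, 73.8, 74.7 and 65.6 after DES, and its change in WT was -1.04 ± 0.17 (SE), limma adjusted p = 4.47e-05. WT-DES lay below all other libraries, and WT-DES replicate 1 far below the rest of its group. Hoxb7, whose promoter is used to drive Cre in the Wolffian duct, the forerunner of the SV, read 47.1, 46.0, 50.3 and 48.8 FPKM in WT-veh and 19.5, 35.4, 33.5 and 30.4 in WT-DES. Hoxb7 in αERKO read 43.3, 26.9, 30.0 and 32.5 after vehicle and 48.3, 40.9, 41.4 and 34.3 after DES, and its change in WT was -0.71 ± 0.17 (SE), limma adjusted p = 0.00148. WT-DES lay below WT-veh but overlapped both αERKO groups, and the call was lost without WT-DES replicate 1 and under each of the 4 other scalings, where the change was -0.29 to -0.56. Hoxb8, a regulator of myeloid progenitors, read 50.9, 51.7, 49.6 and 45.6 FPKM in WT-veh and 16.2, 34.2, 34.1 and 30.4 in WT-DES. Hoxb8 in αERKO read 49.2, 39.0, 39.3 and 39.5 after vehicle and 59.3, 52.9, 52.9 and 46.9 after DES, and its change in WT was -0.82 ± 0.18 (SE), limma adjusted p = 0.000689. All WT-DES libraries were lower than all others. Hoxb9, which patterns the thorax, read 75.2, 78.6, 82.2 and 74.9 FPKM in WT-veh and 17.1, 33.3, 38.8 and 36.6 in WT-DES. Hoxb9 in αERKO read 64.2, 46.5, 64.3 and 59.0 after vehicle and 80.1, 71.3, 72.2 and 68.5 after DES, and its change in WT was -1.34 ± 0.19 (SE), limma adjusted p = 1.4e-05. WT-DES was below each other group, and no other Hoxb gene had as large a change.

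The Hoxc genes were low everywhere. Hoxc6, a thoracic gene, read 0.10, 0.23, 0.50 and 0.95 FPKM in WT-veh and 0.87, 2.07, 0.67 and 2.06 in WT-DES. Hoxc6 in αERKO read 0.20, 1.40, 0.56 and 0.43 after vehicle and 0.11, 0.03, 0 and 0.03 after DES, and its change in WT was 0.72 ± 0.24 (SE), limma adjusted p = 0.0153. WT-DES replicates 2 and 4 were the high libraries and replicates 1 and 3 lay within the WT-veh range, and the call was lost without WT-DES replicate 2 or 4 or WT-veh replicate 1. Hoxc8, which acts in motor neurons and the thorax, read 0.09, 0.09, 0.42 and 0.53 FPKM in WT-veh and 0.41, 2.18, 0.42 and 1.90 in WT-DES. Hoxc8 in αERKO read 0.13, 0.59, 0.15 and 0.31 after vehicle and 0.04, 0.06, 0 and 0.02 after DES, and its change in WT was 0.71 ± 0.24 (SE), limma adjusted p = 0.0168. The same WT-DES libraries, replicates 2 and 4, were high and the others overlapped WT-veh, and without replicate 4 Hoxc8 was no longer called, while without replicate 2 it fell below the 1 FPKM minimum.

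Hoxc10, known from lumbar motor neurons and subcutaneous fat, read 0.49, 0.65, 0.45 and 1.77 FPKM in WT-veh and 1.03, 1.36, 1.96 and 2.76 in WT-DES. Hoxc10 in αERKO read 0.59, 2.77, 1.62 and 1.69 after vehicle and 0.03, 0.08, 0.09 and 0.08 after DES, and its change in WT was 0.61 ± 0.26 (SE), limma adjusted p = 0.0455. WT-veh replicate 4 lay within the WT-DES range, and the call held without WT-veh replicate 4, WT-DES replicate 1 or 2 or αERKO-veh replicate 1 or 2 but not without any other library. WT-veh replicate 4 also had the highest skeletal muscle and adipose sums of its group, 1781 FPKM against 577.2 to 615.3 in replicates 1 to 3 for the 7 skeletal muscle markers and 116.7 FPKM against 18.6 to 72.5 for the 4 adipose markers, and their part in its Hoxc10 level was not tested. Of the exon bases of Hoxc10, 8.7% were shared with Hoxc5 on the same strand. Hoxc11, which acts in the hindlimb, read 0.40, 0.13, 0.25 and 0.19 FPKM in WT-veh and 3.65, 0.75, 0.90 and 1.22 in WT-DES. Hoxc11 in αERKO read 0.13, 0.49, 0.64 and 0.43 after vehicle and 0, 0, 0 and 0.06 after DES, and its change in WT was 0.97 ± 0.24 (SE), limma adjusted p = 0.00182. WT-DES lay above all others and replicate 1 stood far above the rest, without which Hoxc11 fell below the 1 FPKM minimum. The adipose markers summed to 18.6 to 116.7 FPKM over 4 genes in WT-veh and 139.6 to 386.6 in WT-DES, and their part in the Hoxc values was not tested. In the same comparison the fibroblast sum was 730.8 to 881.2 FPKM in WT-veh against 1916 to 2091 in WT-DES, the leukocyte sum 81.3 to 143.9 against 412.8 to 620, and the endothelial sum 40.6 to 49.1 against 90.3 to 144.6. The skeletal muscle sum was lower, at 577.2 to 1781 FPKM in WT-veh against 38.5 to 342 in WT-DES, but Acta1 was a large part of it. Acta1 read 530.1, 577.1, 482.7 and 705.5 FPKM in WT-veh and 235, 24.9, 43.1 and 49.0 in WT-DES. The groups overlapped for Ckm, Myh1, Myh4, Mylpf, Tnnt3 and Tnni2, the last at 2.19 to 231.6 and 4.53 to 15.3 FPKM. The part of the fibroblast, leukocyte, endothelial and skeletal muscle markers was not tested either.

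In Hoxd, Hoxd3 read 19.0, 18.2, 17.2 and 14.02 FPKM in WT-veh and 9.17, 18.1, 17.7 and 17.7 in WT-DES. Hoxd3 in αERKO read 16.4, 13.8, 11.5 and 15.7 after vehicle and 17.3, 18.4, 15.01 and 15.3 after DES. Its log2 difference in WT was -0.16 ± 0.18 (SE), limma adjusted p = 0.44, and 0.25 with rescaling. WT-DES replicate 1 was lowest and the other WT-DES libraries overlapped WT-veh. Hoxd4 read 19.9, 21.9, 22.2 and 13.6 FPKM in WT-veh and 17.4, 22.4, 21.2 and 17.4 in WT-DES. Hoxd4 in αERKO read 23.2, 18.1, 18.8 and 19.8 after vehicle and 22.1, 22.9, 20.7 and 20.4 after DES, with a log2 difference in WT of 0.031 ± 0.13 (SE), limma adjusted p = 0.842. All groups overlapped. Hoxd3 and Hoxd4, both known from the neck end of the spine, shared exon bases with each other, 9.26% of those of Hoxd3 and 13.2% of those of Hoxd4, and more with Gm28230 on the same strand, 53.1% and 39.1%. Of the 38 members 16 shared exon bases with another gene of GENCODE M21, Hoxa7 20.4% with the opposite-strand Hoxaas3 and Hoxd11 10.8% with the same-strand Gm28309 among them, and reads from the shared bases cannot be told apart by gene where the strand is the same or was not used.

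Hoxd8 read 43.2, 43.5, 45.3 and 36.4 FPKM in WT-veh and 20.04, 27.5, 23.5 and 30.8 in WT-DES. Hoxd8 in αERKO read 44.5, 34.2, 33.0 and 37.9 after vehicle and 47.4, 48.6, 48.7 and 52.3 after DES, and its change in WT was -0.72 ± 0.12 (SE), limma adjusted p = 6.72e-05. WT-DES was below all other libraries. Hoxd9, of AbdB type and active in the lower trunk and limbs, read 47.7, 44.0, 45.0 and 44.8 FPKM in WT-veh and 15.6, 21.4, 21.3 and 24.0 in WT-DES. Hoxd9 in αERKO read 44.6, 35.4, 34.2 and 36.2 after vehicle and 56.9, 51.5, 54.3 and 47.1 after DES, and its change in WT was -1.12 ± 0.11 (SE), limma adjusted p = 4.04e-07. WT-DES was below all other libraries, and this adjusted p was the smallest among the 29 members. Hoxd10, whose gene lies next to Hoxd9 and acts in the lumbar cord and limbs, read 6.50, 6.42, 5.93 and 6.07 FPKM in WT-veh and 9.32, 11.7, 9.22 and 9.15 in WT-DES. Hoxd10 in αERKO read 5.13, 5.32, 4.83 and 5.55 after vehicle and 6.52, 6.55, 5 and 5.19 after DES, and its change in WT was 0.58 ± 0.095 (SE), limma adjusted p = 5.95e-05. WT-DES lay above every other library, the reverse of its neighbour, and the call was lost without WT-DES replicate 2. With quantile normalization the Hoxd10 change in WT was 0.35.

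Hoxd11, which builds the forearm and kidney with Hoxa11, read 2.77, 3.10, 2.64 and 2.55 FPKM in WT-veh and 5.89, 6.32, 4.60 and 4.38 in WT-DES. Hoxd11 in αERKO read 2.34, 3.06, 2.40 and 3.04 after vehicle and 2.47, 2.73, 2.11 and 2.98 after DES, and its change in WT was 0.73 ± 0.12 (SE), limma adjusted p = 5.21e-05. WT-DES was above every other library. Hoxd12, a limb gene, read 1.27, 1.75, 1.39 and 1.68 FPKM in WT-veh and 1.74, 2.21, 2.26 and 1.53 in WT-DES. Hoxd12 in αERKO read 1.57, 2.19, 1.43 and 1.89 after vehicle and 1.61, 2.03, 1.33 and 1.67 after DES. Its log2 difference in WT was 0.21 ± 0.12 (SE), limma adjusted p = 0.126, and -0.26 with quantile normalization. The groups overlapped. Hoxd13, the last Hoxd gene and one needed for the shape of the accessory glands, read 23.4, 22.8, 21.4 and 20.7 FPKM in WT-veh and 14.97, 28.0, 28.0 and 21.3 in WT-DES. Hoxd13 in αERKO read 18.7, 21.4, 23.4 and 21.8 after vehicle and 19.99, 22.2, 18.4 and 22.7 after DES, with a log2 difference in WT of 0.022 ± 0.15 (SE), limma adjusted p = 0.905. WT-DES replicate 1 was the lowest and replicates 2 and 3 the highest of all 16, and no group stood apart.

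These changes moved the balance between clusters. As a share of the summed FPKM of the 38 members, Hoxa took 10.6, 11.7, 10.8 and 12.1% in WT-veh and 35.4, 19.8, 20.1 and 21.7% in WT-DES. Hoxb took 60, 59.1, 59.8 and 60.5% and 35.8, 48.2, 49.7 and 46.6%. WT-DES replicate 1 had the highest Hoxa and the lowest Hoxb share, and for both clusters WT-DES did not overlap WT-veh. Hoxd kept 29.1, 28.9, 29 and 26.6% in WT-veh and 26.8, 30.4, 29 and 29.5% in WT-DES, where the groups overlapped. In αERKO the Hoxa share was 11.5 to 16% after vehicle and 8.75 to 12.1% after DES. The Hoxb share there was 51.7 to 58.7% and 55.1 to 60.0%. The Hox sum was 551.1 ± 16.8 FPKM in WT-veh and 418.7 ± 45.7 in WT-DES (mean ± SD, n = 4). With the receptor missing it was 467.9 ± 41.5 FPKM after vehicle and 545.3 ± 35.4 after DES. The FPKM of all genes was also lower in WT-DES, at 375207 to 437619 in sum against 590446 to 652708 in WT-veh. The lower Hox sum in WT-DES is therefore not a lower share of all FPKM.

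**Figure D3:**
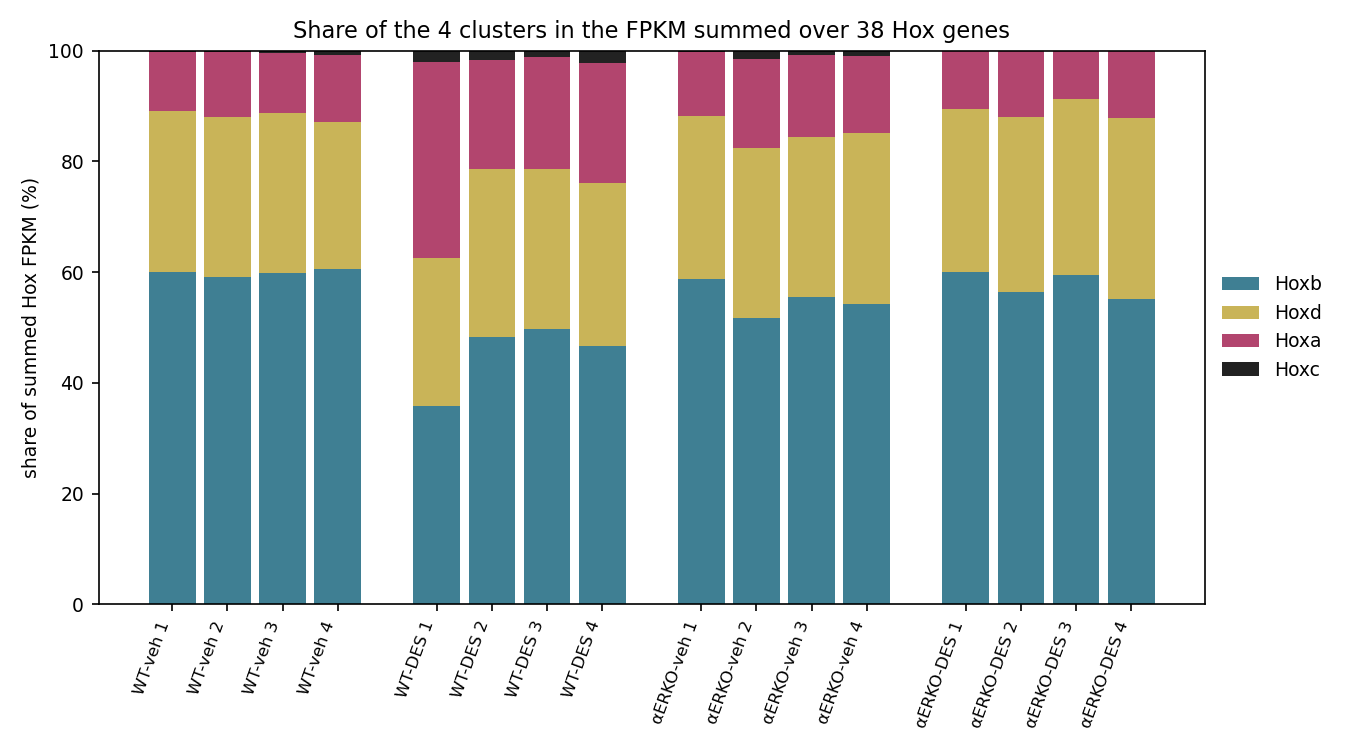
Share of the summed FPKM of the 38 members taken by each cluster in each library. Hoxa is at most 12.1% in WT-veh and at least 19.8% in WT-DES, and 35.4% in WT-DES replicate 1.

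Ratios of 2 members within a library do not depend on a factor applied to the whole library, though quantile normalization and a length correction can change them. The ratio of Hoxd10 to Hoxd9 was 0.136, 0.146, 0.132 and 0.136 in WT-veh and 0.596, 0.547, 0.433 and 0.381 in WT-DES. In αERKO it was 0.115 to 0.153 after vehicle and 0.0921 to 0.127 after DES, so WT-DES stood apart from every other library. Hoxd11 to Hoxd9 gave 0.0581, 0.0704, 0.0586 and 0.057 in WT-veh and 0.377, 0.295, 0.216 and 0.182 in WT-DES. The largest value outside WT-DES was 0.0866. Hoxa13 to Hoxb9, a pair from different clusters, gave 0.128, 0.155, 0.105 and 0.118 in WT-veh and 1.4, 0.535, 0.488 and 0.478 in WT-DES. Here too all WT-DES libraries exceeded all others, replicate 1 by the widest margin. Hoxa10 to Hoxa9 gave 3.89 to 4.76 in WT-veh and 2.74 to 3.76 in WT-DES, below WT-veh, but here WT-DES overlapped αERKO-veh, at 3.05 to 4.31. These pairs were chosen with their changes known, so the ratios are a description.

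**Figure D4:**
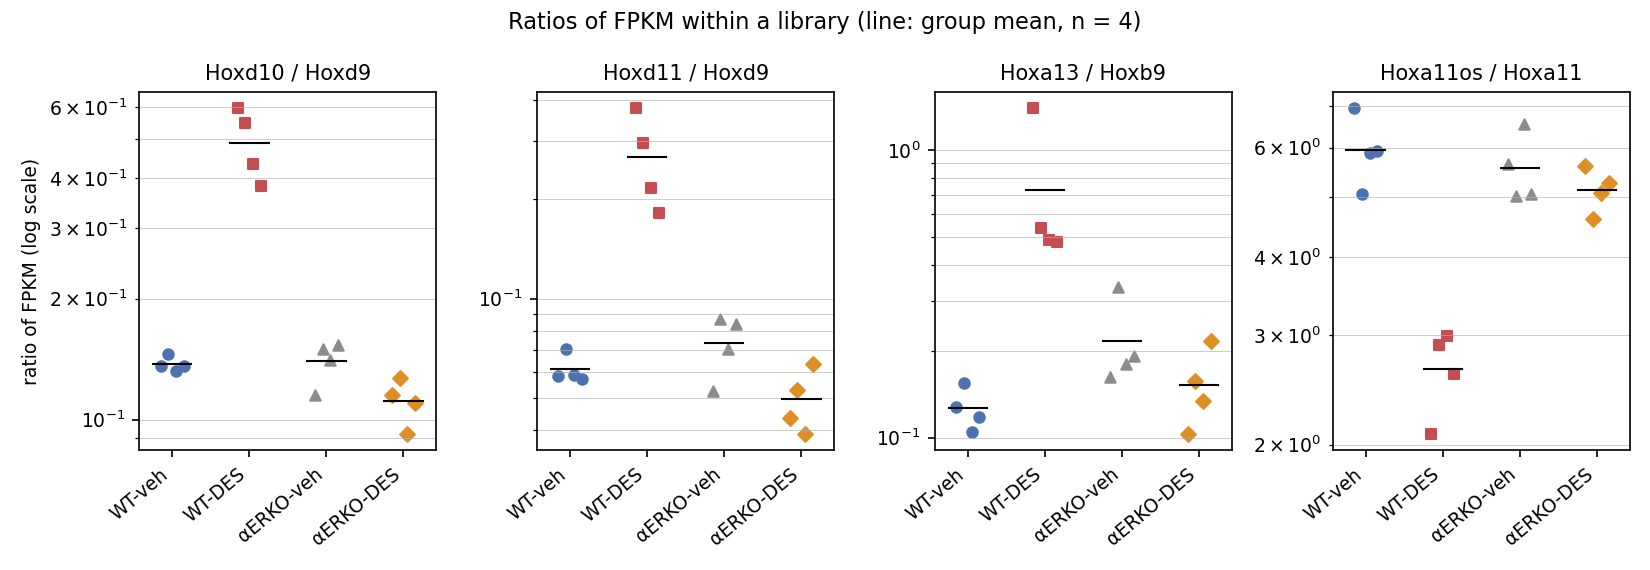
Ratios of FPKM between members, and of Hoxa11os to Hoxa11, in each library by group, on log axes, each point 1 library and each line the group mean. In each of the 4 panels WT-DES does not overlap any other group, unlike the ratio of Hoxa10 to Hoxa9, which is not drawn.

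Comparing αERKO-veh with WT-veh asked what the missing receptor altered without DES. Only 1 of the 29 tested members was called, where 7.12% of all tested genes were (4.50% higher and 2.63% lower). That member was Hoxa3, at 1, 1.99, 1.70 and 1.41 FPKM in αERKO-veh, with a change of 0.44 ± 0.14 (SE), limma adjusted p = 0.0363, and the groups overlapped. Its WT-veh mean was 0.845 FPKM, so the minimum allowed only a higher call. This call was lost on leaving out WT-veh replicate 1, 2 or 3 or αERKO-veh replicate 2, 3 or 4. The groups did not overlap in 6 members, Hoxa11, Hoxb2, Hoxb6, Hoxb7, Hoxb9 and Hoxd10, all below WT-veh, where 29.7% of all tested genes did not overlap, 12.6% above and 17.1% below. Hoxb2 differed by -0.41 ± 0.096 (SE), limma adjusted p = 0.0104 and Hoxb7 by -0.54 ± 0.17 (SE), limma adjusted p = 0.0293, and neither reached a 1.5-fold ratio. αERKO-veh replicate 1 had the highest Hoxb2, Hoxb6, Hoxb7 and Hoxb8 values of its group, and without it 3 members were called, Hoxb7 lower and Hoxa3 and Hoxc10, both with WT-veh means below 1 FPKM, higher. Its skeletal muscle sum, 595.6 FPKM, was below the 1335 to 2116 of the other αERKO-veh libraries. In this comparison 2 of 7 skeletal muscle and 2 of 4 endothelial markers were called higher and 1 of 10 leukocyte markers lower, with changes in the mean log2 level of the lists of 2.37, 0.45 and -0.14, and their part in the Hox values was not tested.

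Comparing αERKO-DES with αERKO-veh asked what DES did without the receptor. Again 1 of 29 was called, where 1.49% of all tested genes were called, 0.0876% higher and 1.41% lower. It was Hoxc10, with a change of -1.25 ± 0.26 (SE), limma adjusted p = 0.0351, and the highest αERKO-DES library, at 0.09 FPKM, stood below the lowest αERKO-veh library, at 0.59. The αERKO-DES mean was 0.07 FPKM, so the minimum allowed only a lower call. The call was lost without αERKO-veh replicate 2 or 4, αERKO-DES replicate 1, 2 or 3, or WT-veh replicate 3, and in a fit on these 2 groups alone the adjusted p was 0.0916. Hoxc6, Hoxc8 and Hoxc11 also read lower in each αERKO-DES library than in each αERKO-veh library, without passing the test. The 9 Hoxc genes summed to 1.33, 6.50, 3.69 and 3.72 FPKM after vehicle and 0.46, 0.38, 0.31 and 0.33 after DES in αERKO. Hoxd9 differed by 0.47 ± 0.11 (SE), limma adjusted p = 0.0409, with a ratio of 1.395, and all αERKO-DES libraries lay above all αERKO-veh libraries. Hoxa7 was in the same way below, and Hoxb9 and Hoxd8 above, without a call. Together, 8 of 29 members did not overlap, 3 above and 5 below, where 13.0% of all tested genes did not, 6.40% above and 6.57% below. Without WT-DES replicate 1, which enters the shared estimate of spread, Hoxa7 was called as well, and without αERKO-veh replicate 1 Hoxa3 was. The αERKO-DES mean of Hoxa3 was 0.905 FPKM, so it too could only be called lower.

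Adipose and skeletal muscle markers differed between the αERKO groups in the same libraries. The 4 adipose markers summed to 47.4, 165.6, 5.45 and 51.1 FPKM after vehicle and 3.37, 4.63, 2.44 and 0.58 after DES, with 2 of 4 called lower. The 7 skeletal muscle markers summed to 595.6 to 2116 FPKM and 479.0 to 679.6, with 5 of 7 called lower. αERKO-veh replicate 1 had the lowest skeletal muscle sum and the lowest Hoxc10 level, 0.59 FPKM, of its group, and both its Hoxc10 level and its mean log2 level of the skeletal muscle markers were above those of every αERKO-DES library. No marker of these lists was at 0 in all libraries. In the same comparison 1 of 6 fibroblast, 1 of 4 endothelial and 1 of 4 anterior prostate markers were called lower as well. The part of any of these tissues in the Hoxc values was not tested.

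**Figure D5:**
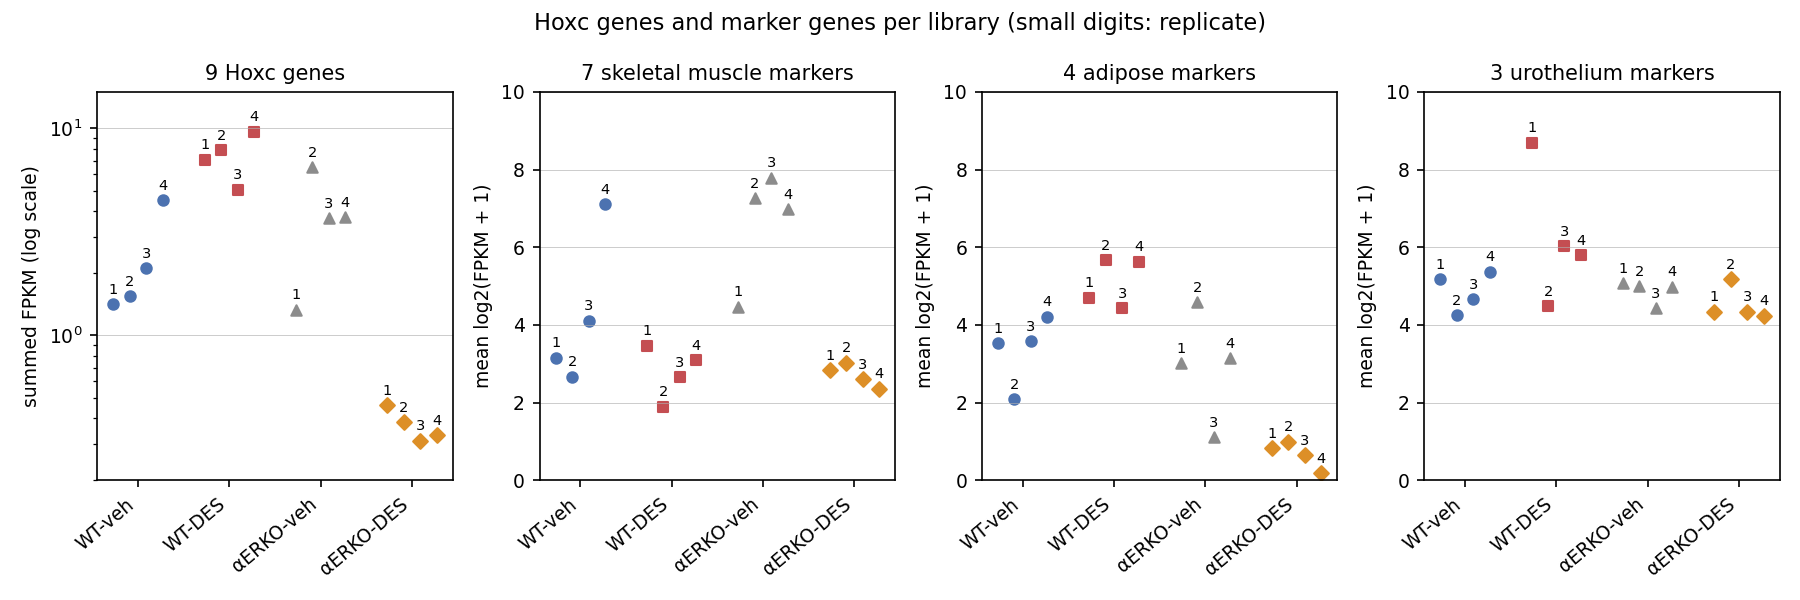
Summed FPKM of the 9 Hoxc members on a log axis and mean log2(FPKM + 1) of the skeletal muscle, adipose and urothelial marker lists in each library by group, with the replicate number at each point. The Hoxc sum is 0.31 to 0.46 FPKM in αERKO-DES and 1.33 to 6.50 in αERKO-veh, and the skeletal muscle and adipose levels are lower in each αERKO-DES library than in each αERKO-veh library.

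Comparing αERKO-DES with WT-veh, 0 of 29 members were called by limma, where 3.18% of all tested genes were (1.21% higher and 1.97% lower), and 2 had an unadjusted p under 0.05. The groups did not overlap in 5 members, Hoxd8 above and Hoxa7, Hoxc8, Hoxc10 and Hoxc11 below, where 21.0% of all tested genes did not overlap, 9.93% above and 11.1% below. Hoxc10 differed by -0.73 ± 0.26 (SE), limma adjusted p = 0.091 and Hoxa7 by -0.42 ± 0.19 (SE), limma adjusted p = 0.186, the second being called without WT-DES replicate 1. For Hoxc8, Hoxc10 and Hoxc11 both means were below 1 FPKM, so no call was possible. Hoxb6, Hoxb7, Hoxb8, Hoxb9, Hoxd9, Hoxd10, Hoxa10 and Hoxa13 overlapped between these groups. Of the markers, 3 of 4 adipose, 3 of 6 fibroblast and 1 of 10 leukocyte were called lower, and none of these lists higher. The mean log2 level of these lists changed by -2.69, -0.59 and -0.22, and their part in the Hox values was not tested.

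Comparing αERKO-DES with WT-DES, which shares its libraries with the comparisons above, 20 of 29 members were called, 6 higher and 14 lower, where 53.4% of all tested genes were called, 23.7% higher and 29.6% lower. The members that did not overlap numbered 20, 6 above and 14 below, against 66.5% of all tested genes, 33.8% above and 32.7% below. In Hoxa 8 of 9 were lower, Hoxa11 now among them at -0.71 ± 0.13 (SE), limma adjusted p = 0.00018, and in Hoxc 4 of 4 were lower. Of these, Hoxa2, Hoxc6, Hoxc8 and Hoxc11 were tested only because WT-DES was high. The αERKO-DES means of Hoxa3 (0.905 FPKM), Hoxa6 (0.48) and Hoxc10 (0.07) were below 1, so these too could only be called lower. In Hoxb 4 of 8 were higher, Hoxb9 by 1.25 ± 0.19 (SE), limma adjusted p = 2.53e-05, while Hoxb7 with a ratio of 1.39 was not called. In Hoxd, Hoxd8 and Hoxd9 were higher, the second by 1.32 ± 0.11 (SE), limma adjusted p = 5.65e-08, and Hoxd10 and Hoxd11 were lower.

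The interaction term asked whether DES acted differently with and without the receptor, as the change in WT minus the change in αERKO. It was called for 19 of 29 members, 12 higher and 7 lower, where 56.4% of all tested genes were called, 29.6% higher and 26.9% lower. Hoxa2, Hoxc6, Hoxc8 and Hoxc11, tested only because WT-DES was high, are among the 12, as are Hoxa3, Hoxa6 and Hoxc10, which passed the minimum through WT-DES and αERKO-veh, the groups that raise the term, so the minimum favoured the direction of all 7. The 19 were the 20 called for DES in WT apart from Hoxd10, whose term was 0.45 ± 0.13 (SE), limma adjusted p = 0.00744, under the limit of a 1.5-fold difference. Hoxc10 had the largest term, 1.86 ± 0.37 (SE), limma adjusted p = 0.00037, made of a rise in WT and a fall in αERKO. Hoxb9 had -1.67 ± 0.27 (SE), limma adjusted p = 6.09e-05 and Hoxd9 -1.59 ± 0.16 (SE), limma adjusted p = 6.75e-07. Among the 10 that were not called, Hoxd13 had 0.054 ± 0.21 (SE), limma adjusted p = 0.83.

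Partners of HOX proteins were read beside the members. Of the 9 TALE cofactors, all tested, 4 were higher and none lower in WT-DES than in WT-veh, where 52.7% of all tested genes were called and 28.9% were higher, with a median log2 change of 0.46 against -0.0094 over all tested genes. Meis1, a MEIS partner of HOX proteins, went from 13.0, 15.5, 12.2 and 11.9 FPKM to 35.8, 20.8, 26.2 and 23.7, a change of 0.94 ± 0.14 (SE), limma adjusted p = 2.62e-05. Meis2 went from 11.7, 13.1, 10.7 and 9.83 to 19.0, 23.1, 25.4 and 24.1, a change of 0.95 ± 0.14 (SE), limma adjusted p = 2.35e-05. For both genes WT-DES lay above every WT-veh library. Against WT-DES, 6 of the 9 were lower in αERKO-DES, where 29.6% of all tested genes were lower and 53.4% were called, and 5 had a called interaction, near the 56.4% over all tested genes.

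Of 14 regulators of Hox genes, 10 were tested, and in WT-DES against WT-veh 4 were higher and 1 lower, with a median log2 change of 0.28. The 5 called of 10 are near the 52.7% called among all tested genes. Kmt2a, the MLL methyltransferase that maintains Hox expression, read 7.10, 7.79, 5.62 and 4.43 FPKM in WT-veh and 11.9, 12.8, 13.1 and 11.9 in WT-DES, a change of 0.92 ± 0.16 (SE), limma adjusted p = 0.000105. Men1, encoding menin, a partner of MLL, read 76.7, 72.6, 75.6 and 78.7 and 22.1, 22.8, 25.9 and 27.1, a change of -1.60 ± 0.083 (SE), limma adjusted p = 1.08e-09. Cyp26b1, which degrades retinoic acid, an inducer of Hox genes, read 0.60, 0.25, 0.19 and 0.41 and 1.76, 1.38, 2.87 and 1.5, a change of 1.06 ± 0.31 (SE), limma adjusted p = 0.00614. WT-DES and WT-veh did not overlap for any of these, and the directions of Kmt2a and Men1 differed. Kmt2a was also higher in αERKO-veh than in WT-veh, by 0.78 ± 0.16 (SE), limma adjusted p = 0.00733, the only regulator called there.

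Of the 13 tested neighbours of the clusters, 3 were higher and 3 lower in WT-DES, with a median log2 change of -0.079. These 6 of 13 are no larger a share than the 52.7% called among all tested genes. Evx1 and Evx2, homeobox genes next to the AbdB ends of Hoxa and Hoxd, read 0.81, 0.93, 1.04 and 0.70 and 1.42, 1.13, 0.63 and 0.47 FPKM in WT-veh. In WT-DES they read 2.16, 3.85, 4.10 and 2.88 and 1.46, 4.36, 3.49 and 2.57, with changes of 1.16 ± 0.15 (SE), limma adjusted p = 7.21e-06 and of 1.02 ± 0.24 (SE), limma adjusted p = 0.00121. Both groups of Evx1 were apart, and for Evx2 WT-DES lay just above WT-veh. Skap1, a T cell adaptor gene next to Hoxb, read 32.5, 30.2, 32.0 and 24.2 FPKM in WT-veh and 3.91, 8.32, 8.21 and 6.05 in WT-DES, a change of -2.05 ± 0.19 (SE), limma adjusted p = 1.93e-07. It fell while the leukocyte markers rose, and the groups did not overlap.

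Of 11 non-coding genes of the clusters, 6 were tested, and 2 were higher and 2 lower in WT-DES, where 52.7% of all tested genes were called. The other 2 were Mir196a-1 and Mir196b, each above 0 in 1 library of 16. Hoxd3os1, on the strand opposite Hoxd3, read 33.5, 32.1, 31.6 and 25.2 FPKM in WT-veh and 11.7, 10.3, 9.26 and 10.4 in WT-DES, a change of -1.47 ± 0.14 (SE), limma adjusted p = 2.05e-07. The groups were apart, while Hoxd3 itself, with which it shares 8.28% of the Hoxd3 exon bases, was not called. Hoxa11os, which shares 35.0% of the exon bases of Hoxa11 and was picked after its values were seen, read 98.4, 84.6, 85.9 and 91.3 FPKM in WT-veh and 56.6, 61.5, 61.6 and 58.1 in WT-DES, a change of -0.59 ± 0.13 (SE), limma adjusted p = 0.00107. Its ratio to Hoxa11 was 6.94, 5.05, 5.89 and 5.92 in WT-veh and 2.08, 2.89, 2.99 and 2.6 in WT-DES. With αERKO the ratio was 5.01 to 6.56 after vehicle and 4.61 to 5.6 after DES, so the WT-DES libraries were the lowest. The table lists short precursors too, and Mir10a, Mir10b, Mir196a-2 and Mir615 were at 0 in all 16 libraries.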

How the data were processed

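RNA from 16 SV samples of 4 groups was sequenced as paired-end reads on an Illumina HiSeq system. Per the labels and methods, the authors filtered reads on quality, aligned them to the mouse genome mm10 (GRCm38) with TopHat2 version 2.0.4 and computed the deposited FPKM values with Cufflinks version 2.0.2, 1 value per gene and library for 31274 genes. The annotation behind the table and the strand of the library are not given in the sources used here. FPKM holds no read counts, so depth is unknown and no count model was used, and abundant transcripts of a library lower the FPKM of all its other genes. Groups were taken from the sample labels.

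Values were tested as log2(FPKM + 1) with limma 3.58.1 in R 4.3.3, as a model of 4 group means over all 16 libraries with an intensity trend, for the 15988 genes with a mean above 1 FPKM in at least 1 group, and p-values were adjusted by Benjamini-Hochberg over those genes. A gene was called when its adjusted p did not exceed 0.05, its group means differed at least 1.5-fold and 1 of the 2 means was above 1 FPKM. The interaction was called at the same adjusted p and a log2 difference of at least 1.5-fold. Scripts in Python 3.11.15 with pandas 2.3.3 summarised the members. Values in every library are given for each member with a mean above 1 FPKM in at least 1 group, and for at most 10 genes of the cofactor, regulator, non-coding and neighbour lists, those with the largest absolute log2 change in WT-DES against WT-veh among the called. The members, lists and markers were chosen with earlier results of these data known. Symbols were matched to GENCODE M21 for coordinates, 22557 directly and 1016 by synonym. The test was tried on simulated data for WT-DES against WT-veh, 14217 genes with 200 changed, where 100% of the changed genes were called and 0.99% of calls were false. Each changed gene had a mean log2(FPKM + 1) above 2 and was shifted by 1 log2 unit, with the spread of WT-veh in every group. In the data 52.7% of tested genes were called. Smaller changes, changes in low genes and the spread of WT-DES were not simulated, so these rates do not carry over to such members. Alternatives covered the pseudocount, the minimum, the scaling, gene length, sample weights, the replicate block and leaving out each library. Some genes of the clusters and lists are not reported here. The SV at week 10 and the uterus were not analysed here.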

Additional observations from a re-analysis of the deposited data

Results flagged for a closer look

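Single libraries far from the rest of their group were looked for with Dixon's test among the 29 tested members in 4 groups, 116 sets of 4 libraries in all. In 14 sets the highest or lowest library had a gap above the critical value for 4 libraries, where chance flags about 1 set in 20. WT-DES replicate 1 gave 6 of them, with Hoxa7 at 8.87 FPKM, Hoxa9 at 14.55, Hoxa10 at 39.89 and Hoxc11 at 3.65 FPKM as highest and Hoxb6 at 26.02 and Hoxd3 at 9.17 FPKM as lowest of their group. This is the library with 1256 FPKM summed over the urothelial markers, whose part was not tested. WT-DES replicate 2 was highest for Hoxd10 at 11.72 FPKM. αERKO-veh replicate 1 was highest of its group for Hoxb2 at 32.39 FPKM and Hoxb8 at 49.19 FPKM. WT-veh replicate 1 was highest for Hoxb6 at 91.55 FPKM, and WT-veh replicate 4 lowest for Hoxb4 at 7.95 and highest for Hoxc10 at 1.77 FPKM. In αERKO-DES, replicate 1 was lowest for Hoxc10 at 0.03 FPKM and replicate 4 highest for Hoxc11 at 0.06 FPKM, both close to 0 for the whole group.

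The change with DES differed between WT and αERKO in 19 members, by limma's test of the interaction itself. Subtracting the αERKO log2 change from the WT one gave 0.8469 ± 0.149 (SE) for Hoxa2 (adjusted p = 0.000145), 1.237 for Hoxa3 (7.93e-05), 1.05 for Hoxa5 (0.00064), 1.081 for Hoxa6 (0.00451), 1.549 for Hoxa7 (0.000145), 0.9301 for Hoxa9 (0.00179) and 1.077 for Hoxa13 (0.00076). In Hoxb the difference was -1.093 for Hoxb2 (5.77e-06), -1.329 for Hoxb6 (0.000145), -1.028 for Hoxb7 (0.00135), -1.156 for Hoxb8 (0.000779) and -1.665 for Hoxb9 (6.09e-05). In Hoxc the difference was 1.334 for Hoxc6 (0.00312), 1.026 for Hoxc8 (0.0156), 1.861 for Hoxc10 (0.00037) and 1.441 for Hoxc11 (0.00135), and in Hoxd -1.112 for Hoxd8 (3.55e-05), -1.592 for Hoxd9 (6.75e-07) and 0.7862 for Hoxd11 (0.000686). These rest on the same 16 libraries as the other comparisons, and Hoxa2, Hoxc6, Hoxc8 and Hoxc11 were tested only because WT-DES was high. Hoxa3, Hoxa6 and Hoxc10 passed the minimum through WT-DES and αERKO-veh, so it favoured their direction too.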

How the results depend on the processing

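The number of called members was 20 in WT-DES against WT-veh, 1 in αERKO-veh against WT-veh, 1 in αERKO-DES against αERKO-veh, 0 in αERKO-DES against WT-veh, 20 in αERKO-DES against WT-DES and 19 for the interaction. With a minimum of 5 FPKM, under which 20 members were tested, these became 12, 0, 0, 0, 12 and 11. With no minimum on FPKM 37 members were tested and the counts were 24 (17 higher and 7 lower, 19 of them among the 20), 1, 1, 0, 26 and 21. After quantile normalization, with 26 members tested, they became 9 (7 of them among the 20), 0, 0, 0, 10 and 12, and the cause was not tested. Beside the 9, 10 and 12, all-gene counts were 7639, 7926 and 7811 of 15754, larger shares than among the members. Among the 10 was Hoxd12 in αERKO-DES against WT-DES, which was not called at -0.14 but was called at 0.481397, in the opposite direction, after quantile normalization. In αERKO-veh against WT-veh the count was 0 with the fold taken from the log2 difference, 0 with an adjusted p of at most 0.01 and 3 with sample weights. In αERKO-DES against αERKO-veh it was 0 with an adjusted p of at most 0.01, 0 in a fit on the 2 groups alone and 5 with sample weights, and in αERKO-DES against WT-veh it was 1 in a fit on the 2 groups alone. Leaving out each library in turn gave 17 to 21 members in WT-DES against WT-veh, 0 to 3 in αERKO-veh against WT-veh, 0 to 2 in αERKO-DES against αERKO-veh, 0 to 1 in αERKO-DES against WT-veh, 18 to 20 in αERKO-DES against WT-DES and 18 to 20 for the interaction. Over single members, leaving out a library kept 2721 results on their side of the threshold, moved 17 past it and took 34 below it, and the other settings kept 2065, moved 35 past it, took 60 below it and reversed 1. With the replicate number as a block the counts were 20, 0, 1, 0, 20 and 19, so Hoxa3 in αERKO-veh lost its call. The numbers did not pair the libraries, since the 24 pairs with the same number had correlations of -0.215 to 0.277 and 3 of 16 libraries correlated best with their own number. Low Hoxc levels and 4 libraries a group limit what could be seen, and the depth is unknown.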

Other observations

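The gene Hotair, a non-coding RNA of the Hoxc cluster, was below the minimum of 1 FPKM, at 0.02, 0.11, 0.11 and 0.09 FPKM in WT-veh and 1.27, 0.21, 0.18 and 0.67 in WT-DES, and at 0.07, 0.11, 0.09 and 0.04 after vehicle and 0, 0.02, 0.02 and 0 after DES in αERKO. Each WT-DES library lay above every other library, and replicate 1 was the highest. Mira, a non-coding RNA of the Hoxa cluster, read 3.88, 2.77, 4.04 and 5.12 FPKM in WT-veh and 11.6, 6.77, 6.77 and 8.06 in WT-DES, a change of 0.90 ± 0.19 (SE), limma adjusted p = 0.000585. The groups did not overlap, and replicate 1 was again the highest. Hottip, transcribed from the Hoxa13 end of Hoxa, read 2.17, 2.09, 2.15 and 2.16 FPKM in WT-veh and 2.83, 4.55, 5.71 and 3.71 in WT-DES, a change of 0.70 ± 0.14 (SE), limma adjusted p = 0.000334, and here WT-DES replicate 1 was the lowest of its group while it was the highest for Hoxa13. Of the microRNA precursors with any value, Mir196a-1 was above 0 in WT-veh replicate 4 alone, at 234.5 FPKM, and Mir196b in αERKO-DES replicate 1 alone, at 1726.2 FPKM, in each case 1 library of 16. Hotair, Mira, Hottip and these precursors were picked after their values were seen.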
